A study of Schizosaccharomyces pombe with 97 samples.

Results

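The small nuclear and nucleolar RNA genes of fission yeast (*Schizosaccharomyces pombe*) were followed through nitrogen starvation in wild type and 6 deletion strains. They were taken by name from the count table, as every gene whose systematic identifier begins with SPSNORNA or SPSNRNA, which gave 60 of the 7014 genes (53 SPSNORNA and 7 SPSNRNA). RNA was sequenced from 81 libraries. All strains were prototrophic, carried *mat1-M* with the *smt0* deletion, which prevents mating-type switching, and were grown in minimal glutamate medium with nitrogen (PMG) before the shift to the same medium without nitrogen. The mutants carried, in addition, a *kanMX4* deletion taken from a genome-wide library by crossing: *hht2∆* (1 of the histone H3 genes), *pht1∆* (histone H2A.Z), *iec1∆* and *ies2∆* (subunits of the Ino80 chromatin remodelling complex), *arp42∆* (an actin-related protein, a putative subunit) and *asp1∆* (an inositol kinase). The reference strain, *smt0*, had no further deletion and is called wild type. Samples were taken before the shift (T0), after 24 h (T1D), after 1 week (T1W) and after 2 weeks (T2W), with 3 biological replicates (A, B and C) in each of 27 groups. The *ies2∆* strain had no T2W samples, and its libraries formed a separate batch without a wild type of its own, so that batch and strain cannot be told apart in any comparison of *ies2∆* with wild type.

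Small nuclear RNAs (snRNAs) are the RNA core of the spliceosome. U1 pairs with the 5′ splice site, U2 with the branch site, U4 holds U6 until the spliceosome is activated, U5 aligns the exons, and U6 forms part of the catalytic centre. Small nucleolar RNAs (snoRNAs) direct proteins to sites on pre-ribosomal RNA. Box C/D snoRNAs carry the motifs TGATGA near the 5′ end and CTGA near the 3′ end and mostly guide 2′-O-methylation, whereas box H/ACA snoRNAs end close to an ACA triplet and mostly guide pseudouridylation. A few, including U3, U14 and U17 (snR30), are needed for the cleavages that release 18S rRNA. Many yeast snoRNAs have genes of their own and others are released from introns of host transcripts.

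Levels are given as reads per 1000000 reads of nuclear protein-coding genes (RPM), that is, relative to the mRNA of the same library, and only levels per kb were compared between genes. Libraries were made from rRNA-depleted RNA with a kit for mRNA, and how well each of them recovered RNAs this short was not tested. Whether the reads came from the finished small RNAs, or from longer forms or forms with a poly(A) tail, was not tested either. A fold change was called at an adjusted p below 0.05 in edgeR's quasi-likelihood test with Benjamini-Hochberg adjustment over the 6670 genes tested. Gene totals ranged between 1980570 and 18992894 reads a library (median 5149311) and mRNA totals between 1216711 and 16436176. The deleted gene was at 3.33 to 8.49% of the wild-type mean in the 12 *asp1∆* libraries. In the libraries labelled *hht2∆* it was below 1% in 7 of 12 but at 13.8 to 33.3% in the other 5 (replicate A at each time and T2W C). In those labelled *ies2∆* it was at 0.955 to 9.25% in 7 of 9, at 36% in T1D B and at 196% in T0 C, so T0 C goes against its label. Reads of *pht1* and *iec1* were at 38.8 to 120% and 58.8 to 129% of wild type in their own mutants, and of the 8 comparisons only *iec1* at T1D was lower by the test. *arp42* was at 10.5 to 37.1% of wild type in the T0 libraries of its mutant (log2 fold change -2.25, adjusted p = 2.49e-12), at 69.1 to 90.9% at T1D (-0.10, adjusted p = 0.741), at 51.1 to 81.3% at T1W (-0.61, adjusted p = 0.0428) and at 46.5 to 91.7% at T2W (-0.45, adjusted p = 0.116). So the T0 libraries labelled *arp42∆* had the reduced level their label gives, while at T1D and T2W, and for *pht1∆* and most of *iec1∆*, no reduction was detected and the labels stand unchecked. Which part of each transcript the reads came from was not tested. The libraries of all mutants but *asp1∆* are named below by their labels. Bulk libraries cannot tell fewer cells of a type from less RNA per cell. The paper reports lower viability at T2W in every mutant than in wild type. It also reports a smaller share of arrested cells (by DNA content) at T1D in all mutants but *hht2∆*. The part of either in the levels below was not tested.

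The sequences below are those the results turn on most, from RefSeq (ASM294v3, the same intervals as in the deposited table except for U6). The first 8 are snoRNAs with large changes in wild type, of which 7 share the box C/D layout, with TGATGA in the first 20 bases and CTGA in the last 20 in capitals. snoU14 lies at chrII:1308634-1308745, plus strand, snoR69b at chrI:4154912-4155002, plus strand, snoU18 at chrII:2720648-2720733, minus strand, snr79 at chrI:2705950-2706037, plus strand, snoR39b at chrII:1791743-1791820, minus strand, snoR38 at chrI:5144133-5144206, plus strand, snoR69 at chrI:5387559-5387641, plus strand, and snoR47 at chrII:3654333-3654416, minus strand. In snoR47 only the CTGA was found.
snoU14: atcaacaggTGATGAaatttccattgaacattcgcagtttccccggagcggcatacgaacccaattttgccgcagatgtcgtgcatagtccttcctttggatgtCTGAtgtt
snoR69b: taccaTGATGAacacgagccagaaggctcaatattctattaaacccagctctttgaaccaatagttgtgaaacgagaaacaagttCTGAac
snoU18: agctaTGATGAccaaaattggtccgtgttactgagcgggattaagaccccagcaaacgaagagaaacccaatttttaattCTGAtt
snr79: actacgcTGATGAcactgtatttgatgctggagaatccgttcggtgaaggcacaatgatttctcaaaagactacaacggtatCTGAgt
snoR39b: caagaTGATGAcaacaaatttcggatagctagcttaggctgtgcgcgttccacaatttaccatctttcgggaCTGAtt
snoR38: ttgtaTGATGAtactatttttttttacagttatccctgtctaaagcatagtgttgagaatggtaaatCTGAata
snoR69: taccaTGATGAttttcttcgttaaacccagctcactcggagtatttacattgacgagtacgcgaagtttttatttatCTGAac
snoR47: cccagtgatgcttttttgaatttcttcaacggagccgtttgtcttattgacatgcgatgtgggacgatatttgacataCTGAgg

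The H/ACA snoRNA snR94 is shown because it had the smallest error relative to its change in wild type at all 3 later times (chrIII:923877-924086, plus strand, ACA of the last 8 bases in capitals). U6 (chrI:2562276-2562419, minus strand) is shown with its 50-base intron in capitals, and U5 (chrII:3236867-3236986, plus strand) with the conserved loop sequence GCCTTTTAC in capitals, since these snRNAs took different courses in starvation.
snR94: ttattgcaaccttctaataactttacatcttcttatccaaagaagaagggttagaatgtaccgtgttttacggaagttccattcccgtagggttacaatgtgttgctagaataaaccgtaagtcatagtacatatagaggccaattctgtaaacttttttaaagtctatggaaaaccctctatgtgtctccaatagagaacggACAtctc
snu6: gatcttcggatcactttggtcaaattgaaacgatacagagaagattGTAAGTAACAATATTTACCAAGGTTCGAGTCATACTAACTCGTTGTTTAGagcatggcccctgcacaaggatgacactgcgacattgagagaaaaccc
snu5: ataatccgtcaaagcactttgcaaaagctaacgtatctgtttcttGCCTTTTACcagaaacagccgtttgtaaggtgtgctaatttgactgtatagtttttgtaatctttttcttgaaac

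RefSeq gave the class box H/ACA to 19 of the 53 SPSNORNA genes and C/D to 1, and no class to 33. Both C/D motifs were found in 16 of those 33, in the 1 C/D gene and in 0 of the 19 H/ACA genes. They occurred together in 0.0469% of 302932 windows of 83 bases across the genome. An ACA in the last 8 bases was found in 14 of the 19 H/ACA genes, against 9.80% of the windows. The U5 loop sequence was present in 0.0477% of 209526 windows of 120 bases. A match describes the letters only.

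Whether a gene had reads followed its place among the annotated genes. All 17 small RNA genes that lie with their whole length in an exon of another gene on the same strand had 0 reads in every library, among them the 5 genes of the psf3-antisense-1 cluster (snoZ3, snoZ4, snoZ5, snoZ7 and snoZ8), snR41, snR51b and snR70 in SPNCRNA.723, and the H/ACA genes snR3, snR97 and snR98. The 3 that share part of their length with such an exon had 1 read (snR30, the U17 RNA needed for 18S rRNA), 9 reads (snR91) and 62 reads (snR95) over all 81 libraries. The 8 genes that overlap an exon on the opposite strand only had 213 to 988103 reads, the 10 in an intron of a gene on the same strand 137 to 551212, and the 22 without annotated overlap 200 to 5397659. A 0 here therefore says nothing about the RNA. Of the 60 genes, 41 passed the filter on low counts and were tested, 34 of them with a mean of at least 10 reads a library, and 23 had reads in every library.

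**Figure D1:**
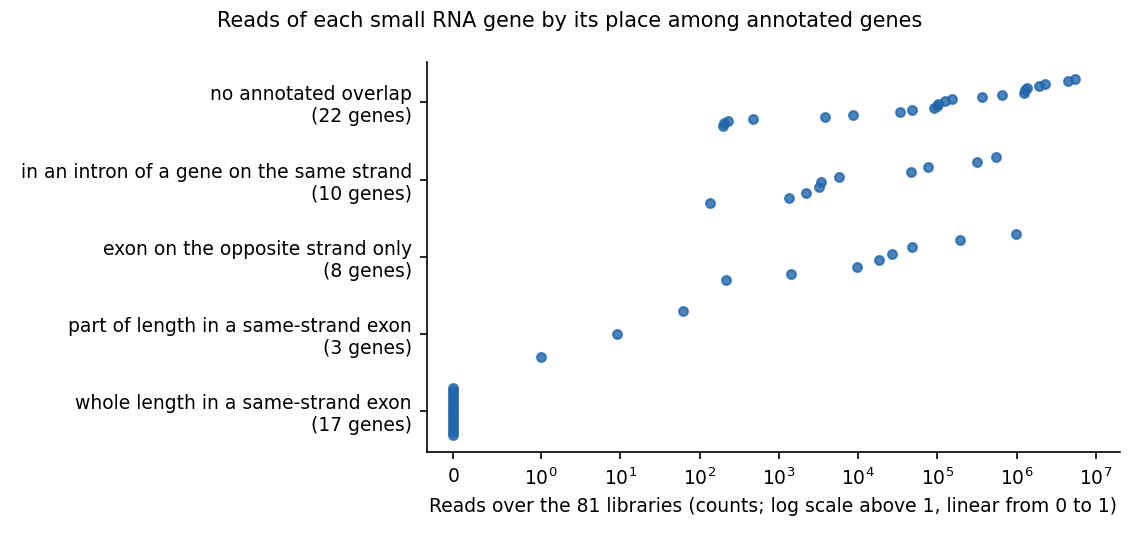
Reads of each of the 60 small RNA genes summed over the 81 libraries (counts, log scale above 1), by the place of the gene among other annotated genes, with 1 point for each gene. The 17 genes inside a same-strand exon all sit at 0, and the 22 genes without overlap sit between 200 and 5397659.

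The reads were concentrated in few genes. The 60 genes took 21886736 reads, of which 3 genes (*snu6*, *snu32* and *sno12*) held 55.5% and 8 genes 86.4%. Per length, in wild type at T0, the U3 gene *snu32* stood at 27349 ± 3162 RPM per kb (SD, n = 3), *snu6* at 20079.5 ± 3755, *snu3* at 17369 ± 1705, the H/ACA RNA *sno12* at 15483 ± 2937, *snu1* at 10784 ± 1730.4, the H/ACA RNA *sno20* at 10615 ± 1512, the H/ACA RNA *snR42* at 8328 ± 1637 and *snu2* at 7936 ± 1876. Neighbours in this order from *snu6* to *sno12* and from *snu1* to *snu2* differed by less than the sum of their SDs. *snu5* stood at 709 ± 216 RPM per kb and *snoU14* at 499 ± 31.6, both below U1, U2 and U6.

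The annotated places of some genes limit what their counts mean. The gene named *snu4* lies at chrII:467233-467361 in the deposited table, whereas RefSeq places the U4 RNA at chrII:467489-467615, with 127 bases between the intervals. At least 1 end was the same in both annotations for 57 of 57 genes within 50 kb, so the builds are not shifted here. *snu4* had 1443 reads in all, and its values are those of a neighbouring stretch, not of U4. The gene *snu3* aligns to *snu32* only from 122 bases before its annotated start, over 256 columns of which 234 (91.4%) were identical. Its interval therefore holds the 3′ part of the U3 RNA up to base 134, and the rest of its 256 bases did not align. The level of *snu3* per kb above was taken over the whole interval, so its place in that order is uncertain. The longest identical run of both loci was 90 bases, longer than a read, and within the annotated interval of *snu3* it was 31 bases, so the split of reads between the U3 genes is uncertain. The H/ACA gene snR46, with 205 reads in all, lies on the plus strand in the deposited table and on the minus strand in RefSeq. Its reads may therefore not be those of the RNA it is named for.

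In wild type the small RNAs together made up 2.12, 2.76 and 2.71% of the mRNA reads at T0 and 8.53, 8.70 and 8.63% at T1D in replicates A, B and C. The shares were 4.38, 7.04 and 6.28% in the T1W libraries and 6.25, 5.45 and 3.52% in the T2W libraries. The means were 2.53% ± 0.354, 8.62% ± 0.0879, 5.90% ± 1.37 and 5.07% ± 1.40 (SD, n = 3). No library of a later time overlapped the T0 libraries. rRNA genes, partly removed before sequencing, made up 13.6% ± 1.54 at T0 and 11.8% ± 2.04 at T1D, and tRNA genes 0.125% ± 0.00843 and 0.195% ± 0.0521.

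**Figure D2:**
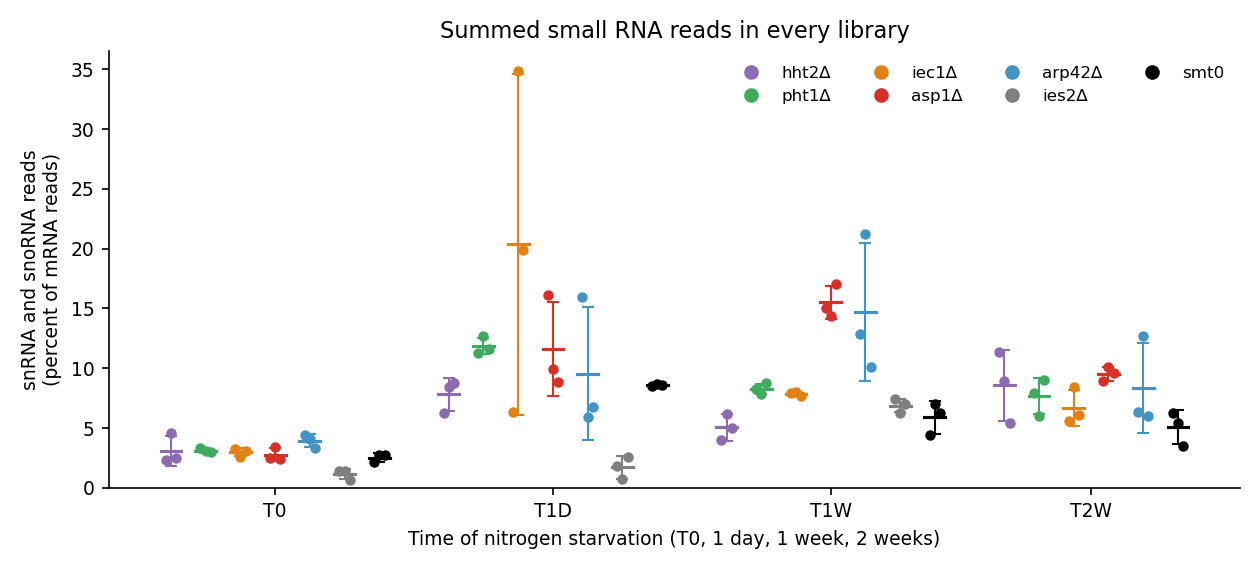
Reads of the 60 small RNA genes as a percentage of mRNA reads in each library (points) with group means (bars), by time of nitrogen starvation. Wild type sits at 2.12 to 2.76% at T0 and 8.53 to 8.70% at T1D, and 2 *iec1∆* libraries at T1D reach 34.8 and 19.9%.

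After 24 h without nitrogen, 23 of the 41 tested small RNAs rose relative to mRNA in wild type and 0 fell. Over all genes tested, 29.7% rose and 24.1% fell. The median log2 fold change was 1.58 for the 41 small RNAs, against 0.10 for all genes. Of the 325 other tested genes no longer than the longest small RNA, 66 rose and 33 fell, with a median of 0.45 (0.13 for the 161 tRNA genes and 0.63 for the 164 others). The rise covered all kinds of member. Of the 5 genes named for spliceosomal snRNAs 4 rose, namely U1, U5, U6 and *snu4*, whose interval is not that of U4. So did 8 of 14 H/ACA snoRNAs and 11 of 22 other snoRNAs and U3 genes. In 22 of the 23 called genes the T1D and T0 libraries did not overlap. No share of such genes over all genes was taken, here or in the mutants.

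U6, the catalytic snRNA, had 12407, 21041 and 35447 RPM at T1D, against 1725, 1948 and 2471 RPM at T0 (log2 fold change 3.31 ± 0.50 (SE), adjusted p = 1.01e-07). U5 had 496, 489 and 605 RPM at T1D and 56.3, 107 and 92.5 RPM at T0 (log2 fold change 2.45 ± 0.83 (SE), adjusted p = 0.0109). U1 had 6072, 5669.5 and 5630.4 RPM at T1D and 1314, 1801 and 1705 RPM at T0 (log2 fold change 1.66 ± 0.45 (SE), adjusted p = 0.00157). All 3 snRNAs were higher in each T1D library than in any T0 library. U2 did not pass the test, with 4239, 3353 and 1424 RPM at T1D and 1104, 1795 and 1553 RPM at T0, where replicate C at T1D lay within the T0 range. The U3 genes did not pass either. *snu32* had 19714, 12410.5 and 15142 RPM at T1D and 6045, 7492 and 7385 RPM at T0, so its groups did not overlap. *snu3* had 10274, 5105 and 4138 RPM at T1D and 3984, 4851 and 4504 RPM at T0, which overlapped. The neighbouring stretch counted as *snu4* had 14.3, 16.1 and 3.75 RPM at T1D and 0.712, 0.138 and 1.07 RPM at T0 (log2 fold change 4.05 ± 0.63 (SE), adjusted p = 2.22e-07).

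Among the snoRNAs the largest rise was that of U14, the C/D RNA needed for 18S rRNA. It had 683, 1519.8 and 2212 RPM at T1D, against 55.2, 59.7 and 52.7 RPM at T0 (log2 fold change 4.53 ± 0.63 (SE), adjusted p = 1.22e-08). Every T1D library lay far above the T0 libraries. snoR47 had 1155, 2035 and 1838 RPM at T1D and 124, 146 and 155 RPM at T0 (log2 fold change 3.37 ± 0.60 (SE), adjusted p = 3.58e-06). The C/D-type RNAs snoR69b and snoU18 followed. snoR69b had 412, 562 and 726 RPM at T1D and 44.0, 57.9 and 49.7 RPM at T0 (log2 fold change 3.29 ± 0.56 (SE), adjusted p = 1.36e-06). snoU18 had 137, 208 and 426 RPM at T1D and 22.3, 28.5 and 27.4 RPM at T0 (log2 fold change 3.11 ± 0.57 (SE), adjusted p = 5.62e-06). Replicate A was the lowest of the T1D libraries for all 4 of these RNAs.

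snr79, with a gene of its own that overlaps *gpi12* on the opposite strand, had 89.2, 149 and 320.0 RPM at T1D and 19.0, 21.6 and 22.1 RPM at T0 (log2 fold change 2.96 ± 0.55 (SE), adjusted p = 6.24e-06). snoR39b had 517, 949.6 and 1642 RPM at T1D and 123, 135 and 121 RPM at T0 (log2 fold change 2.85 ± 0.58 (SE), adjusted p = 3.09e-05). As for the RNAs above, no T1D library overlapped T0. Of the H/ACA RNAs, snR94 had 3612, 4811 and 2060.4 RPM at T1D and 663, 846 and 859.7 RPM at T0, while snR101 stayed near its starting level with 343, 339 and 232 RPM at T1D and 202, 286 and 283 RPM at T0. The calls of the small RNAs named here in wild type at T1D held without any 1 of the 6 libraries.

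**Figure D3:**
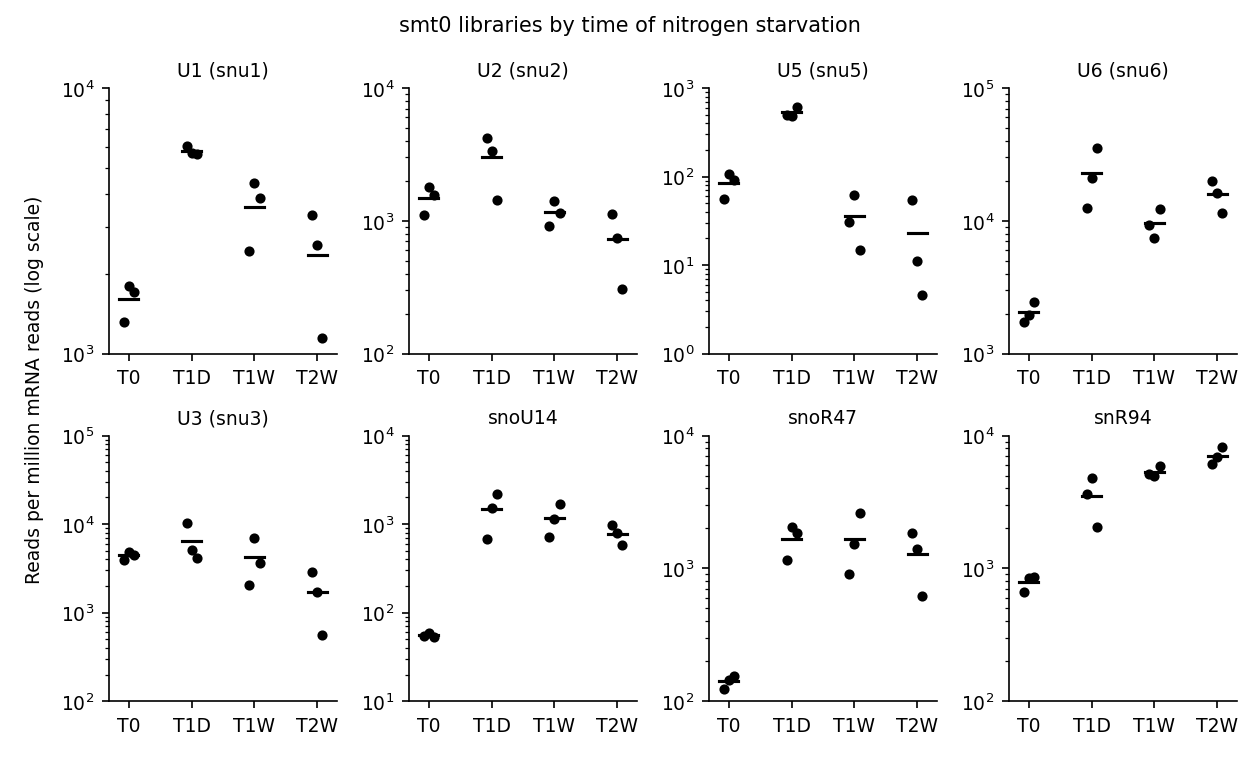
Level of 8 small RNAs in wild type (*smt0*) in RPM (log scale, scale differs between panels) at 4 times of nitrogen starvation. Points are replicates A, B and C from left to right and bars are means. U5 reaches 605 at T1D and 4.55 in the lowest T2W library, whereas the lowest snR94 library after T0 sits at 2060.4.

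Of the 10 snoRNAs in introns, 5 rose at T1D and 0 fell, where 29.7% of all tested genes rose and 24.1% fell. The hosts of 3 of the 5 follow. The remaining hosts did not pass the test. They were *rlp7* of snoR39a (log2 fold change -0.29 ± 0.21 (SE), adjusted p = 0.253) and *gim6* of snoZ15 (0.0034 ± 0.17 (SE), adjusted p = 0.992). The host of snoR47 is *fta3* (a kinetochore protein gene), which fell with 126, 125 and 79.5 RPM at T1D and 150.4, 205 and 213 RPM at T0 (log2 fold change -0.97 ± 0.21 (SE), adjusted p = 1.10e-04). The host of snoR39b is *rpl701* (a ribosomal protein gene), which fell with 729.7, 512 and 447 RPM at T1D and 1686, 1376 and 1275 RPM at T0 (log2 fold change -1.56 ± 0.23 (SE), adjusted p = 3.32e-08). The host of snoU18 is *ero11* (an oxidoreductase gene of the endoplasmic reticulum), which rose, with 339, 428 and 349 RPM at T1D and 218, 223 and 240.1 RPM at T0 (log2 fold change 0.51 ± 0.12 (SE), adjusted p = 1.73e-04). snoR38, which did not pass the test, and its host SPAC29A4.02c both had negative log2 fold changes. The difference between a snoRNA and its host was not tested.

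At 1 week, 14 of 41 small RNAs were higher and 3 lower than at T0 in wild type, where 30.4% of all tested genes were higher and 29% lower. The median was 0.43, against -0.69 for the other short genes and -1.52 for tRNA genes. At 2 weeks 11 were higher and 6 lower, where 33.5% of all genes were higher and 29.5% lower. The median was -0.10, against -1.10 and -2.05. The numbers of higher members at both times were thus close to those of genes at large.

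U14, snoR47, snoR69b and U6 were called higher at 1 week too. U14 had 722, 1147 and 1685 RPM at T1W (log2 fold change 4.24 ± 0.62 (SE), adjusted p = 3.02e-08), against the T0 values above. snoR47 had 901, 1521 and 2593 RPM at T1W (log2 fold change 3.41 ± 0.60 (SE), adjusted p = 2.22e-06). snoR69b had 181, 319 and 382 RPM (log2 fold change 2.38 ± 0.54 (SE), adjusted p = 1.49e-04). For these and U6, with 9342, 7379 and 12229 RPM (log2 fold change 2.07 ± 0.48 (SE), adjusted p = 1.59e-04), each T1W library lay above all T0 libraries. snR94 had 5102, 4953 and 5908 RPM at T1W (log2 fold change 2.59 ± 0.26 (SE), adjusted p = 6.24e-13). It too stood above every T0 library. U5 had 30.8, 62.1 and 15 RPM at T1W and 56.3, 107 and 92.5 RPM at T0, which overlapped, and did not pass the test. The intronic snoR38 fell, with 1.26, 1.23 and 0 RPM at T1W and 4.27, 8.31 and 6.85 RPM at T0 (log2 fold change -3.33 ± 0.81 (SE), adjusted p = 3.40e-04). These are low counts, and its host SPAC29A4.02c fell as well.

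At 2 weeks U6 had 19915, 16324 and 11541 RPM (log2 fold change 2.79 ± 0.49 (SE), adjusted p = 1.47e-06), above all T0 libraries. U5 had 54.1, 11.2 and 4.55 RPM, all below the lowest T0 library of 56.3 RPM (log2 fold change -2.02 ± 0.88 (SE), adjusted p = 0.0416). The U5 call did not hold without 1 of 4 libraries (adjusted p up to 0.166 without smt0 T0 B, smt0 T0 C, smt0 T2W B or smt0 T2W C). U2 had 1135, 745 and 306 RPM (log2 fold change -1.20 ± 0.54 (SE), adjusted p = 0.0482), and its call was lost in the same way (adjusted p up to 0.233 without smt0 T0 B, smt0 T0 C, smt0 T2W B or smt0 T2W C). *snu3* had 2893, 1708 and 560.1 RPM (log2 fold change -1.55 ± 0.57 (SE), adjusted p = 0.0145), a call that was lost in 1 case (adjusted p up to 0.113 without smt0 T2W C). T2W replicate C had the lowest level of U1, U2, U5 and both U3 genes among the wild-type T2W libraries, and also the lowest share of tRNA reads, 0.0264% of mRNA reads. The part of that in the lower values was not tested.

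Among the snoRNAs at 2 weeks, snR94 reached 6056, 6895 and 8150.0 RPM (log2 fold change 2.99 ± 0.26 (SE), adjusted p = 4.97e-15). U14 had 971, 787 and 588 RPM (log2 fold change 3.63 ± 0.60 (SE), adjusted p = 4.75e-07), and snoR47 had 1837, 1412 and 617 RPM (log2 fold change 3.01 ± 0.59 (SE), adjusted p = 1.36e-05). snoU18 had 144, 191 and 153 RPM (log2 fold change 2.47 ± 0.56 (SE), adjusted p = 1.23e-04). All 4 stood above every T0 library. The lower snoRNAs had low counts. snoR38 had 2.21, 0.349 and 0 RPM (log2 fold change -2.96 ± 0.82 (SE), adjusted p = 0.00129). snoU24b, in an intron of *cpc2*, had 4.05, 1.39 and 0 RPM at T2W and 7.30, 9.41 and 9.0 RPM at T0 (log2 fold change -2.30 ± 0.83 (SE), adjusted p = 0.0140). snoR69 had 7.37, 4.53 and 3.03 RPM at T2W and 13.4, 18.6 and 16.3 RPM at T0 (log2 fold change -1.83 ± 0.69 (SE), adjusted p = 0.0178). The calls of snoU24b and snoR69 were lost without single T2W libraries (adjusted p up to 0.0712 without smt0 T2W B or smt0 T2W C for snoU24b and adjusted p up to 0.0681 without smt0 T2W B or smt0 T2W C for snoR69).

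The direction depends on what the reads are set against. ERCC transcripts are synthetic RNAs that the authors added by the number of cells, in their methods the vegetative cells of each culture. They were meant as a scale per cell, and whether that held for starved cells was not tested. On this scale the median of all genes moved by -1.04 (log2) at T1D, -5.29 at T1W and -4.94 at T2W. On that scale 5 small RNAs rose and 1 fell at T1D (median 0.39), where 2.19% of all genes rose and 21.2% fell. At T1W 0 rose and 39 fell (0.255% and 96.9% of all genes), and at T2W 0 rose and 37 fell (0.315% and 95.7%). U14 on the ERCC scale had a log2 fold change of 2.99 ± 0.70 (SE), adjusted p = 6.47e-04, at T1D, and of -1.44 ± 0.66 (SE), adjusted p = 0.0314, at T1W. U6 had 1.79 ± 0.70 (SE), adjusted p = 0.0474, at T1D. The rises described at 1 and 2 weeks are therefore rises relative to mRNA.

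The counts for mRNAs of proteins that bind these RNAs are read against all genes, of which 29.7% rose and 24.1% fell at T1D. At T1W 30.4% rose and 29% fell, and after 2 weeks 33.5% rose and 29.5% fell. All 4 box C/D core proteins (*fib1*, *nop56*, *nop58* and *snu13*) fell relative to all mRNA at each later time. *nop56* had 209, 215 and 243 RPM at T1D and 591, 566 and 531 RPM at T0 (log2 fold change -1.54 ± 0.23 (SE), adjusted p = 8.99e-08). Of the 4 H/ACA core proteins (*cbf5*, *gar1*, *nhp2* and *nop10*), 4 fell at T1D, 3 at T1W and 4 at T2W. *gar1* had 132, 115 and 117 RPM at T1D and 343, 274 and 249 RPM at T0 (log2 fold change -1.45 ± 0.29 (SE), adjusted p = 2.77e-05). Of 7 snoRNP assembly factors 3 were matched by symbol, and 1 rose and 2 fell at T1D, among them the ATPase gene *rvb1* (log2 fold change -1.13 ± 0.19 (SE), adjusted p = 7.05e-07). The third, *shq1*, was the 1 that rose.

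For the snRNAs, 1 of 15 Sm and Lsm genes rose and 8 fell at T1D, and at both later times 0 rose and 9 fell. *smf1*, the Sm F protein, had 64.3, 62.6 and 32.3 RPM at T1D and 102, 111 and 112 RPM at T0 (log2 fold change -1.22 ± 0.22 (SE), adjusted p = 4.22e-06). *lsm6*, part of the ring on U6, had log2 fold change 0.65 ± 0.21 (SE), adjusted p = 0.00643, a call lost in 1 case (adjusted p up to 0.0828 without smt0 T1D B). Of 13 spliceosomal snRNP proteins 4 rose and 4 fell at T1D, near the shares of all genes. The numbers were 5 and 3 a week into starvation, and 8 and 3 at the last time. *prp3*, of the U4/U6 particle, had 209, 285 and 379 RPM at T1D and 131, 87.2 and 114 RPM at T0 (log2 fold change 1.19 ± 0.20 (SE), adjusted p = 1.27e-06), and at T2W 501, 524 and 835 RPM (log2 fold change 2.31 ± 0.21 (SE), adjusted p = 1.34e-14). *usp103*, the U1 C protein, rose at T1D (log2 fold change 1.03 ± 0.32 (SE), adjusted p = 0.00608). Both are among the 4 that rose, and the median log2 fold change of the 13 genes at T1D was 0.02. Of 12 matched genes for 3′ end processing 0 rose and 3 fell at T1D, among them the nuclear poly(A)-binding protein gene *pab2* (log2 fold change -1.04 ± 0.18 (SE), adjusted p = 1.36e-06), and 3 rose and 4 fell at T1W and at T2W, again near the background.

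Relative to mRNA, the *asp1∆* strain had the most small RNAs called against wild type at the late times. At T1W 31 of 41 small RNAs were higher and 1 lower than in wild type, where 33% of all genes were higher and 20.6% lower. The median was 2.08. At T2W 23 were higher and 4 lower (30% and 22.1% of all genes), with a median of 1.83. Other short genes had medians as high, 2.25 at T1W (2.87 for tRNA genes and 1.15 for the rest) and 2.10 at T2W. The part of gene length in these values was not tested. The summed share was 15.5% ± 1.41 in *asp1∆* and 5.90% ± 1.37 in wild type at T1W, and 9.54% ± 0.603 in *asp1∆* and 5.07% ± 1.40 in wild type at T2W (SD, n = 3 each). A high summed share was not particular to *asp1∆*. It was 14.7% ± 5.79 at T1W and 8.34% ± 3.76 at T2W in the libraries labelled *arp42∆*, and 8.57% ± 2.97 at T2W in those labelled *hht2∆*. In all 32 genes called at T1W the *asp1∆* and wild-type libraries did not overlap. The same count over all genes was not taken.

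U5 had the largest change among the snRNAs. At T1W it had 1361, 1325 and 1281 RPM in *asp1∆* and 30.8, 62.1 and 15 RPM in wild type (log2 fold change 5.47 ± 0.97 (SE), adjusted p = 4.02e-06). At T2W it had 622, 778 and 733 RPM in *asp1∆* and 54.1, 11.2 and 4.55 RPM in wild type (log2 fold change 5.07 ± 0.97 (SE), adjusted p = 1.71e-05). For U5 every *asp1∆* library after T0 was above every wild-type library of any time. U2 had 9973, 9057 and 6187 RPM in *asp1∆* and 922, 1405 and 1147 RPM in wild type at T1W (log2 fold change 3.08 ± 0.58 (SE), adjusted p = 1.03e-05), and 5367, 6562 and 6995 RPM in *asp1∆* and 1135, 745 and 306 RPM in wild type at T2W (log2 fold change 3.27 ± 0.58 (SE), adjusted p = 5.00e-06). U1 had 14789, 12702 and 14736 RPM in *asp1∆* and 2434, 4394 and 3864 RPM in wild type at T1W (log2 fold change 2.2 ± 0.46 (SE), adjusted p = 6.36e-05). *snu3* had 12118, 11405 and 12709 RPM in *asp1∆* and 2893, 1708 and 560.1 RPM in wild type at T2W (log2 fold change 2.97 ± 0.60 (SE), adjusted p = 3.71e-05). None of these ranges overlapped.

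Relative to mRNA, U6 was higher in *asp1∆* at T1W and lower at T2W. At T1W it had 20703, 16775 and 33523 RPM in *asp1∆* and 9342, 7379 and 12229 RPM in wild type (log2 fold change 1.52 ± 0.47 (SE), adjusted p = 0.00500). On the ERCC scale that difference was -0.34 ± 0.68 (SE), adjusted p = 0.674. At T2W it had 5002, 7001 and 5342 RPM in *asp1∆* and 19915, 16324 and 11541 RPM in wild type (log2 fold change -1.31 ± 0.46 (SE), adjusted p = 0.0159), a call lost in 2 cases (adjusted p up to 0.0591 without smt0 T2W A or asp1 T2W A). The H/ACA RNA snR101 was lower in *asp1∆* throughout starvation. It had 181, 168 and 146 RPM in *asp1∆* and 343, 339 and 232 RPM in wild type at T1D (log2 fold change -0.86 ± 0.19 (SE), adjusted p = 0.00175). At T1W it had 260.2, 214 and 251 RPM in *asp1∆* and 577, 558 and 536 RPM in wild type (log2 fold change -0.98 ± 0.19 (SE), adjusted p = 2.82e-05). At T2W it had 229, 199 and 199.6 RPM in *asp1∆* and 796, 970.0 and 641 RPM in wild type (log2 fold change -1.79 ± 0.20 (SE), adjusted p = 7.60e-11). snR94 had 3017, 2950.4 and 2982 RPM in *asp1∆* and 6056, 6895 and 8150.0 RPM in wild type at T2W (log2 fold change -1.09 ± 0.25 (SE), adjusted p = 2.20e-04). The other lower member at T2W was the stretch named *snu4*.

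Among the snoRNAs higher in *asp1∆*, snoZ15 had 21.0, 21.4 and 9.27 RPM in *asp1∆* and 1.88, 1.64 and 1.01 RPM in wild type at T1W (log2 fold change 3.77 ± 0.79 (SE), adjusted p = 6.06e-05). snoR54, in an intron of *gua1*, had 33.4, 30.6 and 32.9 RPM in *asp1∆* and 3.45, 4.11 and 1.42 RPM in wild type (log2 fold change 3.73 ± 0.55 (SE), adjusted p = 6.99e-08). U14 had 2445, 1871 and 3216 RPM in *asp1∆* and 722, 1147 and 1685 RPM in wild type at T1W (log2 fold change 1.30 ± 0.55 (SE), adjusted p = 0.0401), a call that was lost in 4 cases (adjusted p up to 0.165 without smt0 T1W A, smt0 T1W B, asp1 T1W A or asp1 T1W C). At T2W the H/ACA RNAs snR33 and snR36 had the largest changes of the snoRNAs with a mean of at least 10 counts a library. snR33 had 601, 718 and 682 RPM in *asp1∆* and 110.1, 70.1 and 23.8 RPM in wild type (log2 fold change 3.44 ± 0.70 (SE), adjusted p = 5.05e-05). snR36 had 235, 273 and 233 RPM in *asp1∆* and 46.4, 24.0 and 4.04 RPM in wild type (log2 fold change 3.43 ± 0.77 (SE), adjusted p = 1.96e-04). On the ERCC scale 9 small RNAs were higher and 3 lower at T1W and at T2W the numbers were 5 and 6, where the median of all genes moved by -1.53 and -1.29.

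At T0 1 small RNA was higher in *asp1∆* and 0 lower (1.69% and 1.51% of all genes), or 12 and 2 in a fit of these 2 groups alone and 2 with DESeq2. The one called was snoR39b with 268, 670.2 and 425 RPM in *asp1∆* and 123, 135 and 121 RPM in wild type (log2 fold change 1.89 ± 0.56 (SE), adjusted p = 0.0419). The call was lost without most of the libraries (adjusted p up to 0.194 without smt0 T0 A, smt0 T0 B, smt0 T0 C, asp1 T0 B or asp1 T0 C). Median log2 fold changes in *asp1∆* at T0 were 0.31 over the small RNAs, 0.44 over the other short genes and 0.68 over tRNA genes. At T1D 8 were higher and 2 lower (6.81% and 3.82% of all genes), a count of 10 that was 5 without T1D A, 5 without wild type T1D A and 6 without wild type T1D B. The fit of these 2 groups alone called 15 higher and 1 lower. The shares of all genes above do not apply to fits of 2 groups. At T1D the medians were 1.05 over the small RNAs, 1.30 over the other short genes and 2.21 over tRNA genes, and the part of gene length or tRNA reads in the calls was not tested. snoZ15 had 167, 87.4 and 75.3 RPM in *asp1∆* and 11.4, 15.9 and 18.4 RPM in wild type (log2 fold change 2.89 ± 0.61 (SE), adjusted p = 6.94e-04). snoR39a, in an intron of *rlp7*, had 2713, 806 and 703 RPM in *asp1∆* and 80.6, 165 and 270.1 RPM in wild type (log2 fold change 3.06 ± 0.91 (SE), adjusted p = 0.0196), a call lost in 3 cases (adjusted p up to 0.173 without smt0 T1D A, smt0 T1D B or asp1 T1D A).

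**Figure D4:**
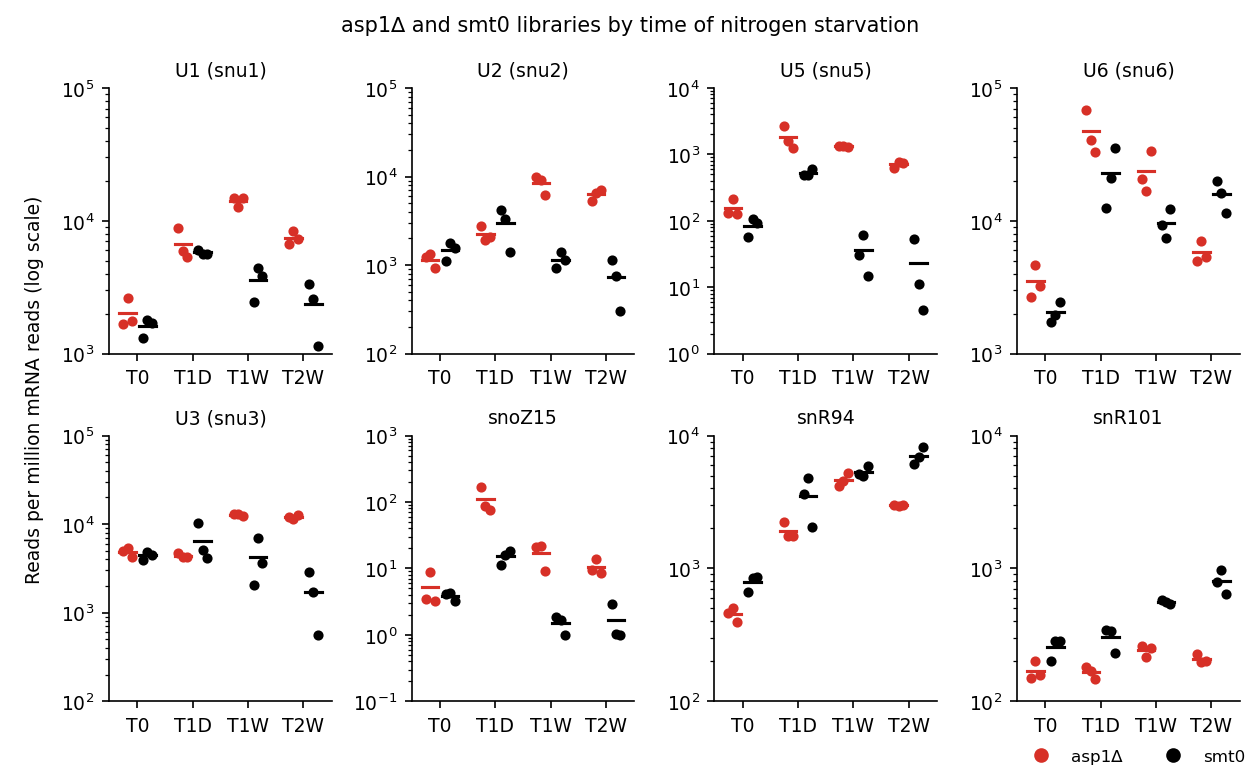
Level of 8 small RNAs in *asp1∆* (red) and wild type (*smt0*, black) in RPM (log scale, scale differs between panels) at 4 times of nitrogen starvation. Points are replicates A, B and C and bars are means. U5 sits at 1281 to 1361 in *asp1∆* at T1W and at 15 to 62.1 in wild type, and snR101 sits lower in *asp1∆* at T1D, T1W and T2W.

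The libraries labelled *ies2∆* had lower levels of most small RNAs at T1D. There 35 of 41 small RNAs were lower than in wild type and 0 higher, where 22.1% of all genes were lower and 21.2% higher. The median was -2.52, against -1.35 for the other short genes and -1.80 for tRNA genes. The summed share was 1.78, 0.721 and 2.61% in the libraries labelled *ies2∆* and 8.53, 8.70 and 8.63% in wild type. Their mRNA totals at T1D were 8719054, 3920302 and 10273527 reads. As above, the strain cannot be told apart from its batch. On the ERCC scale, with the batch shifted by 3.70 (log2) so that the mean ratio of gene reads to ERCC reads at T0 was equal in both batches (T0 C included), 17 members were lower at T1D and 0 higher. Its T0 level on that scale was therefore fixed, not measured. The authors, with their own correction of this batch, reported most genes lower at T1D and few changed at T1W. Here 0.9% of all genes were lower at T1D and 96.5% higher at T1W on the ERCC scale. The cause of this difference was not tested.

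U6 had 1497, 690.3 and 2405 RPM in the libraries labelled *ies2∆* and 12407, 21041 and 35447 RPM in wild type at T1D (log2 fold change -3.81 ± 0.51 (SE), adjusted p = 3.94e-08). U14 had 71.3, 14.8 and 90.7 RPM in libraries labelled *ies2∆* and 683, 1519.8 and 2212 RPM in wild type (log2 fold change -4.53 ± 0.63 (SE), adjusted p = 7.51e-08). For both, every library labelled *ies2∆* lay below the lowest wild-type library. snoR02, of no class in RefSeq, had 1.15, 0.765 and 1.56 RPM in the libraries labelled *ies2∆* and 48.6, 64.5 and 9.0 RPM in wild type (log2 fold change -4.92 ± 1.21 (SE), adjusted p = 8.07e-04), and snoR39a had 3.90, 0 and 10.5 RPM in libraries labelled *ies2∆* and 80.6, 165 and 270.1 RPM in wild type (log2 fold change -4.84 ± 1.05 (SE), adjusted p = 1.87e-04). Replicate B was the lowest of the 3 libraries labelled *ies2∆* for U6, U14 and snoR02, and it also kept 36% of the wild-type *ies2* level.

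At T0 8 small RNAs were lower in the libraries labelled *ies2∆* and 0 higher (10.6% and 11.1% of all genes), and 3 were called without T0 C, the library that goes against its label. The call of sno12 held without it. The count was 2 without wild type T0 B, 3 without wild type T0 C and 3 without T0 A. sno12 had 1056, 1043 and 461 RPM in the libraries labelled *ies2∆* and 2297, 3275 and 3253 RPM in wild type (log2 fold change -1.64 ± 0.41 (SE), adjusted p = 0.00248). snR92 had 115, 128 and 69.5 RPM in libraries labelled *ies2∆* and 217, 284 and 299.8 RPM in wild type (log2 fold change -1.21 ± 0.38 (SE), adjusted p = 0.0170), a call lost in 3 cases (adjusted p up to 0.103 without smt0 T0 B, smt0 T0 C or ies2 T0 C). At T1W 1 was higher and 4 lower (7.77% and 6.97% of all genes), and the summed share was 6.88% ± 0.573 in the libraries labelled *ies2∆* and 5.90% ± 1.37 in wild type. rRNA reads were at 56.8% ± 10.8 of mRNA reads in the libraries labelled *ies2∆* and 14.5% ± 5.58 in wild type. snoR47 had 494, 401 and 405 RPM in libraries labelled *ies2∆* and 901, 1521 and 2593 RPM in wild type (log2 fold change -1.93 ± 0.57 (SE), adjusted p = 0.0158, adjusted p up to 0.127 without smt0 T1W C, ies2 T1W B or ies2 T1W C), and snoR69b had 105, 63.3 and 75.1 RPM in libraries labelled *ies2∆* and 181, 319 and 382 RPM in wild type (log2 fold change -1.83 ± 0.55 (SE), adjusted p = 0.0163, adjusted p up to 0.0824 without smt0 T1W C, ies2 T1W B or ies2 T1W C). The count of 5 was 3 without T1W A, 1 without T1W B, 1 without T1W C, 3 without wild type T1W B and 1 without wild type T1W C. The other calls, named after their values were seen, were U14 and *snu4* (lower) and snR5 (higher, on few reads).

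In the libraries labelled *arp42∆*, some members were higher and others lower at T1D. At that time 6 were higher and 6 lower than in wild type (17.3% and 10.6% of all genes), or 0 higher and 3 lower in a fit of these 2 groups alone. Median log2 fold changes at T1D were -0.60 over the small RNAs, 0.29 over the other short genes and 0.49 over tRNA genes. snoZ15 had 0.748, 0 and 4.77 RPM in the libraries labelled *arp42∆* and 11.4, 15.9 and 18.4 RPM in wild type (log2 fold change -2.80 ± 0.77 (SE), adjusted p = 0.00404), and snR36 had 26.6, 4.58 and 37.8 RPM in libraries labelled *arp42∆* and 232, 218 and 48.8 RPM in wild type (log2 fold change -2.68 ± 0.75 (SE), adjusted p = 0.00513, adjusted p up to 0.0579 without arp42 T1D B). U6 had 92024, 38486 and 22836 RPM in libraries labelled *arp42∆* and 12407, 21041 and 35447 RPM in wild type, which overlapped (log2 fold change 1.34 ± 0.47 (SE), adjusted p = 0.0249, adjusted p up to 0.461 without smt0 T1D A, smt0 T1D B or arp42 T1D A). Replicate B at T1D was low for several members, with 0.417 RPM of U5, against 162 and 210.1 RPM in A and C. The count of 12 was 7 without T1D B and 4 without wild type T1D A.

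At T0 6 were higher in the libraries labelled *arp42∆* and 0 lower (10.8% and 8.7% of all genes). snoR39b had 540.4, 419.5 and 299 RPM in those libraries and 123, 135 and 121 RPM in wild type (log2 fold change 1.66 ± 0.55 (SE), adjusted p = 0.0261). snr79 had 86.6, 68.2 and 50.3 RPM in libraries labelled *arp42∆* and 19.0, 21.6 and 22.1 RPM in wild type (log2 fold change 1.64 ± 0.53 (SE), adjusted p = 0.0214). U14 had 213, 202 and 183 RPM in libraries labelled *arp42∆* and 55.2, 59.7 and 52.7 RPM in wild type (log2 fold change 1.76 ± 0.56 (SE), adjusted p = 0.0194). None of the ranges overlapped, yet each call was lost without single libraries: for snoR39b adjusted p up to 0.102 without smt0 T0 A, smt0 T0 B, smt0 T0 C, arp42 T0 A or arp42 T0 B, for snr79 adjusted p up to 0.0873 without smt0 T0 A, smt0 T0 B, smt0 T0 C, arp42 T0 A or arp42 T0 B and for U14 adjusted p up to 0.0746 without smt0 T0 A, smt0 T0 B, smt0 T0 C or arp42 T0 A. The count was 1 without T0 A, 3 without T0 B, 2 without wild type T0 A, 2 without wild type T0 B and 3 without wild type T0 C. The fit of these 2 groups alone called 24 higher and 0 lower, and the shares of all genes above do not apply to that fit. The T0 medians were 0.67 over the small RNAs, 0.74 over the other short genes and 1.00 over tRNA genes, and 49 of the 325 short genes were higher.

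At T1W 9 were higher in the libraries labelled *arp42∆* and 0 lower (7.09% and 2.7% of all genes), and the count was 1 without T1W B, 2 without wild type T1W A, 4 without wild type T1W B and 5 without wild type T1W C. Median changes were 0.87 over the small RNAs, 1.01 over the other short genes and 1.93 over tRNA genes, and 58 of the 325 short genes were higher, whose part in the result was not tested. U6 had 39906, 54706 and 38232 RPM in those libraries and 9342, 7379 and 12229 RPM in wild type (log2 fold change 2.2 ± 0.48 (SE), adjusted p = 0.00167), and its call held without any 1 of the 6 libraries. snr79 had 179.6, 406 and 161 RPM in libraries labelled *arp42∆* and 36.4, 67.4 and 89.6 RPM in wild type (log2 fold change 1.94 ± 0.52 (SE), adjusted p = 0.0111, adjusted p up to 0.185 without smt0 T1W A or arp42 T1W B). snoR47 had 5166, 8194 and 5499 RPM in libraries labelled *arp42∆* and 901, 1521 and 2593 RPM in wild type (log2 fold change 1.91 ± 0.57 (SE), adjusted p = 0.0228, adjusted p up to 0.150 without smt0 T1W A, smt0 T1W B or arp42 T1W B). At T2W 4 were higher and 0 lower (10.8% and 5.62% of all genes), namely snR40, snoR47, snoR69b and U14. U14 had 899, 5888 and 904 RPM in the libraries labelled *arp42∆* and 971, 787 and 588 RPM in wild type (log2 fold change 1.74 ± 0.55 (SE), adjusted p = 0.0233, adjusted p up to 0.867 without smt0 T2W B, smt0 T2W C or arp42 T2W B). snR40 had 495, 1813 and 779 RPM in libraries labelled *arp42∆* and 156, 191 and 153 RPM in wild type (log2 fold change 2.64 ± 0.71 (SE), adjusted p = 0.00733, adjusted p up to 0.0949 without arp42 T2W B), and snoR69b had 382, 971 and 296 RPM in libraries labelled *arp42∆* and 236, 199 and 126 RPM in wild type (log2 fold change 1.57 ± 0.53 (SE), adjusted p = 0.0304, adjusted p up to 0.354 without smt0 T2W B, smt0 T2W C or arp42 T2W B). Replicate B was the highest for all 3, and the count was 0 without T2W B, 7 without T2W C, 1 without wild type T2W B and 1 without wild type T2W C. The medians then were 0.78 over the small RNAs, 0.77 over the other short genes and 1.04 over tRNA genes.

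For the libraries labelled *iec1∆* the summed share spread most between replicates at T1D. There 16 small RNAs were higher and 0 lower than in wild type (10.4% and 1.17% of all genes), but in 0 of the 16 did the groups not overlap. The summed share was 6.36, 34.8 and 19.9% in the libraries labelled *iec1∆* and 8.53, 8.70 and 8.63% in wild type, with replicate A low and B and C high. tRNA reads were at 0.155, 1.42 and 1.23% of mRNA reads in the libraries labelled *iec1∆* and 0.152, 0.181 and 0.253% in wild type, split in the same way, and the part of that in the result was not tested. U6 had 20834, 172964 and 87456 RPM in the libraries labelled *iec1∆* and 12407, 21041 and 35447 RPM in wild type (log2 fold change 1.98 ± 0.47 (SE), adjusted p = 0.00226, adjusted p up to 0.142 without iec1 T1D B). The fit of these 2 groups alone called 0, and the count was 2 without T1D B, 7 without T1D C, 6 without wild type T1D A and 9 without wild type T1D B. Medians of the log2 fold change were 0.86 over the small RNAs, 1.07 over the other short genes and 1.44 over tRNA genes.

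At T0 and at T1W 0 members were called in either direction in the libraries labelled *iec1∆* with edgeR, where 4.99% and 0.705% of all genes were higher and 1.98% and 0.03% lower. Fits of the 2 groups alone called 2 higher and 1 lower at T0 and 0 at T1W. At an unadjusted p below 0.05 there were 1 at T0 and 4 at T1W, and DESeq2 called 1 and 0. At T2W 11 were higher and 0 lower (19.7% and 12.8% of all genes), though the fit of these 2 groups alone called 0 and the count was 6 without T2W B, 6 without T2W C, 6 without wild type T2W B and 5 without wild type T2W C. *snu3* had 6187, 9831 and 8340.4 RPM in the libraries labelled *iec1∆* and 2893, 1708 and 560.1 RPM in wild type (log2 fold change 2.349 ± 0.58 (SE), adjusted p = 0.00154). snoR02 had 115, 119 and 118 RPM in libraries labelled *iec1∆* and 25.0, 4.88 and 0 RPM in wild type (log2 fold change 3.62 ± 1.06 (SE), adjusted p = 0.00684). snR36 had 110.2, 160.4 and 108 RPM in libraries labelled *iec1∆* and 46.4, 24.0 and 4.04 RPM in wild type (log2 fold change 2.40 ± 0.76 (SE), adjusted p = 0.0120, adjusted p up to 0.0837 without smt0 T2W C). Medians at T2W were 0.83 over the small RNAs, 0.74 over the other short genes and 0.82 over tRNA genes.

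With edgeR 0 members were called in the libraries labelled *hht2∆* at the first 3 times. Over all genes 2.59%, 0.345% and 0.435% were higher and 2.01%, 0.06% and 0.03% lower at these times. At an unadjusted p below 0.05 there were 2, 0 and 1 members, and DESeq2 called 0, 0 and 0. At T2W 17 were higher and 0 lower (28.9% and 17.2% of all genes), 4 of them without overlap. Median changes at T2W were 1.05 over the small RNAs, 0.48 over the other short genes and 0.24 over tRNA genes. The fit of these 2 groups alone called 0, and the count was 3 without T2W A, 10 without wild type T2W B and 7 without wild type T2W C. T2W A kept 33.3% of the wild-type *hht2* level. U5 had 387, 90.1 and 7.20 RPM in the libraries labelled *hht2∆* and 54.1, 11.2 and 4.55 RPM in wild type (log2 fold change 2.96 ± 0.90 (SE), adjusted p = 0.00576, adjusted p up to 0.391 without hht2 T2W A). snr79 had 204, 87.0 and 70.5 RPM in libraries labelled *hht2∆* and 49.4, 33.1 and 32.9 RPM in wild type (log2 fold change 1.81 ± 0.54 (SE), adjusted p = 0.00462, adjusted p up to 0.128 without hht2 T2W A). snR101 had 1485, 1552 and 1003 RPM in libraries labelled *hht2∆* and 796, 970.0 and 641 RPM in wild type, without overlap (log2 fold change 0.88 ± 0.19 (SE), adjusted p = 1.90e-04).

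In edgeR 1 member was higher and 0 lower in the libraries labelled *pht1∆* at each of the first 3 times, where 6.73%, 4.15% and 3.36% of all genes were higher and 5.01%, 1.68% and 0.705% lower. Fits of these 2 groups alone called 7 at T0, 1 at T1D and 7 at T1W, all higher, to which these shares do not apply. DESeq2 called 2, 1 and 3. At T0 snR88 had 10.6, 12.3 and 16.3 RPM in those libraries and 5.87, 5.40 and 5.57 RPM in wild type (log2 fold change 1.33 ± 0.44 (SE), adjusted p = 0.0363), and at T1D snR101 had 487, 474 and 475 RPM in libraries labelled *pht1∆* and 343, 339 and 232 RPM in wild type (log2 fold change 0.65 ± 0.19 (SE), adjusted p = 0.0315). Both calls were lost without 5 of the 6 libraries (adjusted p up to 0.145 without smt0 T0 A, smt0 T0 B, smt0 T0 C, pht1 T0 B or pht1 T0 C for snR88 and adjusted p up to 0.274 without smt0 T1D B, smt0 T1D C, pht1 T1D A, pht1 T1D B or pht1 T1D C for snR101). At T1W the call was snR5, named after its values were seen, lost without any 1 of the libraries but *pht1∆* T1W C, with 2.71, 2.40 and 2.59 RPM in libraries labelled *pht1∆* and 0.314, 0 and 0.404 RPM in wild type. At T2W 7 were higher and 0 lower (10.9% and 5.25% of all genes), and the count was 4 without T2W A, 4 without T2W C, 0 without wild type T2W B and 0 without wild type T2W C. snoR02 had 145, 127 and 87.9 RPM in the libraries labelled *pht1∆* and 25.0, 4.88 and 0 RPM in wild type (log2 fold change 3.58 ± 1.06 (SE), adjusted p = 0.0169, adjusted p up to 0.115 without smt0 T2W B or smt0 T2W C). snoU24b had 21.0, 10.2 and 17.2 RPM in libraries labelled *pht1∆* and 4.05, 1.39 and 0 RPM in wild type (log2 fold change 3.07 ± 0.83 (SE), adjusted p = 0.00896, adjusted p up to 0.0751 without smt0 T2W B or smt0 T2W C), and *snu3* had 8541, 5637 and 7065 RPM in libraries labelled *pht1∆* and 2893, 1708 and 560.1 RPM in wild type (log2 fold change 2.10 ± 0.58 (SE), adjusted p = 0.0102, adjusted p up to 0.110 without smt0 T2W B or smt0 T2W C). The median was 1.04 over the small RNAs, 0.74 over the other short genes and 0.96 over tRNA genes. All mutants at T2W were compared with the same 3 wild-type libraries, among which replicate C was lowest for these RNAs.

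On the ERCC scale the mutants, by their labels, compared with wild type as follows in edgeR. At T0 the small RNAs were called 0 higher and 0 lower in *hht2∆* (1 at an unadjusted p below 0.05, 0.015% and 0.09% of all genes), 0 higher and 0 lower in *pht1∆* (0 at an unadjusted p below 0.05, 0.075% and 0.12% of all genes) and 0 higher and 0 lower in *iec1∆* (0 at an unadjusted p below 0.05, 0.42% and 0.12% of all genes). They were called 0 higher and 0 lower in *asp1∆* (4 at an unadjusted p below 0.05, 0.375% and 0.27% of all genes), 0 higher and 0 lower in *arp42∆* (3 at an unadjusted p below 0.05, 0.06% and 1.8% of all genes) and 0 higher and 0 lower in *ies2∆* (18 at an unadjusted p below 0.05, 0.105% and 0.21% of all genes) at the same time. At T1D the small RNAs were called 0 higher and 0 lower in *hht2∆* (4 at an unadjusted p below 0.05, 0.915% and 0.015% of all genes), 0 higher and 39 lower in *pht1∆* (0.015% and 93.1% of all genes) and 0 higher and 36 lower in *iec1∆* (0.105% and 93.1% of all genes). They were called 0 higher and 36 lower in *asp1∆* (0.015% and 95.9% of all genes), 0 higher and 40 lower in *arp42∆* (0.015% and 98.1% of all genes) and 0 higher and 17 lower in *ies2∆* (5.8% and 0.9% of all genes) at the same time. At T1W the small RNAs were called 0 higher and 0 lower in *hht2∆* (3 at an unadjusted p below 0.05, 0.03% and 0.015% of all genes), 0 higher and 0 lower in *pht1∆* (8 at an unadjusted p below 0.05, 0.24% and 0.015% of all genes) and 0 higher and 0 lower in *iec1∆* (17 at an unadjusted p below 0.05, 1.02% and 0% of all genes). They were called 9 higher and 3 lower in *asp1∆* (3.12% and 49.5% of all genes), 0 higher and 33 lower in *arp42∆* (0.045% and 91.6% of all genes) and 36 higher and 0 lower in *ies2∆* (96.5% and 0.015% of all genes) at the same time. At T2W the small RNAs were called 3 higher and 1 lower in *hht2∆* (2.64% and 20.9% of all genes), 0 higher and 0 lower in *pht1∆* (9 at an unadjusted p below 0.05, 0.18% and 0.54% of all genes) and 0 higher and 3 lower in *iec1∆* (0.615% and 2.91% of all genes). They were called 5 higher and 6 lower in *asp1∆* (1.75% and 35.2% of all genes) and 0 higher and 21 lower in *arp42∆* (0.075% and 78.4% of all genes) at the same time. On this scale the median log2 fold change of all genes lay between -6.51 and 3.58 in these comparisons. The *ies2∆* values rest on the batch shift given above and differ from the authors' own counts at T1D and T1W.

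**Figure D5:**
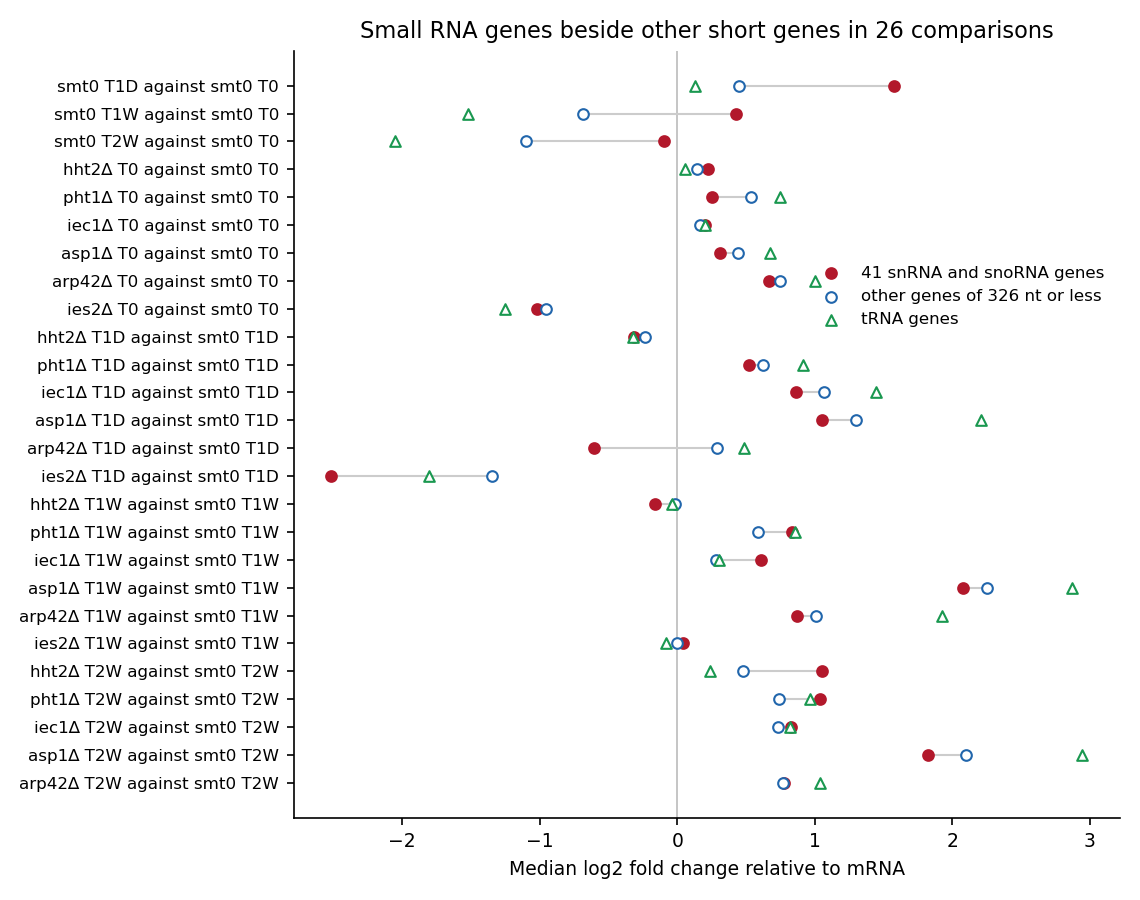
Median log2 fold change relative to mRNA of the 41 tested small RNA genes (red), of 325 other genes of 326 nt or less (open circles) and of 161 tRNA genes (triangles) in the 26 comparisons. The small RNAs lie at 1.58 in wild type at T1D, well to the right of the other short genes at 0.45, and at 2.08 in *asp1∆* at T1W, beside them at 2.25.

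Across the 27 group means, the RNAs most like U6 were snoU18 (Spearman's rho 0.96), U14 (0.94) and snoR47 (0.94), and those most like *snu3* were U2 (0.80), snoR54 (0.73) and *snu32* (0.72). These values describe groups that share libraries, times and depth.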

How the data were processed

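RNA was depleted of rRNA, converted to stranded paired-end libraries with a kit for mRNA (Illumina), and sequenced on a NextSeq 2000. ERCC transcripts were added in proportion to cell number. The authors demultiplexed reads with bcl2fastq (2.20.0.422), aligned them to ASM294v2 with STAR (2.7.9a) and, per the labels, used featureCounts (1.5.1). The deposited values are raw counts per gene in 81 libraries. Settings for strand and for reads over several features were not given in the sources used here. ChIP samples were not used here.

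Library size was the total count of 5106 nuclear protein-coding genes times its TMM factor (0.830 to 1.12). Genes above 1 CPM of that size in at least 3 libraries were tested (6670 of 7014) with edgeR (4.0.16, R 4.3.3), all 27 groups in 1 quasi-likelihood fit, in 26 comparisons. SE is the absolute log2 fold change over the square root of F. RPM and percentages use mRNA totals without TMM. Named genes were all SPSNRNA genes, U14, U17 and, per comparison, the members with the largest called changes (5 a direction in wild type at T1D, 3 at T1W and T2W, 2 in each mutant) among those averaging 10 counts or more and without overlap between groups; a few more are named beside them. The members, protein lists and rules were chosen with earlier results of these data known. Alternatives were ERCC scaling, TMM on all genes, other filters, fits of 2 groups, DESeq2 (1.42.0), the replicate letter as a block, and leaving out each library, for which the dispersion trend of the whole fit was kept. Shares of all genes come from the fit of all 27 groups on the scale named, and none is given for fits of 2 groups or DESeq2. On counts simulated for wild type at T1D with the same dispersion for every gene, 193 of 200 genes changed 4-fold were recovered, with 8 false calls among 6670 genes. These numbers do not carry over to members that vary more between libraries. Replicates carried the same letters in all groups, but the letters paired the libraries by correlation (all 3 above 0.1) in only 1 of 26 comparisons, *hht2∆* at T2W, where the block left the count at 17, and no block was used elsewhere. Sequences came from RefSeq ASM294v3, whose intervals equal those deposited for 57 of the 60 genes by start and end, among them snR46, which lies on the other strand there.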

Additional observations from a re-analysis of the deposited data

Results flagged for a closer look

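Each of the following is a change from a strain's own T0, in which all 3 libraries of the mutant moved to one side of its T0 libraries and all 3 of wild type to the other side. The difference between the strains' changes was not tested in any of them. Values are log2 changes of group means with 0.1 RPM added, mutant minus wild type.

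In *asp1∆* 5 cases were of this kind. U5 from T0 to T2W differed by 4.04, *snu3* from T0 to T2W by 2.67, snoR54 from T0 to T1W by 3.19, snoU24b from T0 to T1W by 3.13 and snoZ15 from T0 to T1W by 3.01. In the libraries labelled *arp42∆* snoZ15 from T0 to T1D differed by -3.77 and snoR69 from T0 to T1D by -3.42. In those labelled *ies2∆*, a batch of its own, snoU24b from T0 to T1W differed by 2.05.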

How the results depend on the processing

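Counts below are small RNAs called in either direction in the comparisons of the report; except for left-out libraries and the block, only those more than 1.5 times apart from the report are given, and only summed shares that moved by more than 1 SD unless said. Of the 91 named changes, DESeq2, no filter on low counts, a minimum mean of 10 counts and the replicate block changed 0 calls, TMM on all genes ended 1, fits of the 2 groups alone ended 11, and ERCC scaling ended 23 and reversed 30. With ERCC scaling the counts were 6 in wild type at T1D, 39 in wild type at T1W, 37 in wild type at T2W, 0 in *pht1∆* at T0, 0 in *asp1∆* at T0, 0 in *arp42∆* at T0, 0 in *ies2∆* at T0, 39 in *pht1∆* at T1D, 36 in *iec1∆* at T1D, 36 in *asp1∆* at T1D, 40 in *arp42∆* at T1D, 17 in *ies2∆* at T1D, 0 in *pht1∆* at T1W, 12 in *asp1∆* at T1W, 33 in *arp42∆* at T1W, 36 in *ies2∆* at T1W, 4 in *hht2∆* at T2W, 0 in *pht1∆* at T2W, 3 in *iec1∆* at T2W, 11 in *asp1∆* at T2W and 21 in *arp42∆* at T2W. The reversed log2 fold changes were -0.15 for prp3, -0.22 for usp103, -0.37 for lsm6 and -0.65 for ero11, in wild type at T1D. They were -1.44 for snoU14, -2.80 for snR94, -2.39 for snoR47, -3.25 for snoR69b and -3.37 for snu6, in wild type at T1W. They were -2.06 for snR94, -1.25 for snoU14, -1.77 for snoR47, -2.45 for snoU18, -2.10 for snu6 and -2.84 for prp3, in wild type at T2W. They were -2.59 for snR101, in *pht1∆* at T1D. They were -1.79 for snu6, in *iec1∆* at T1D. They were -0.79 for snoR39a and -1.25 for snoZ15, in *asp1∆* at T1D. They were -5.20 for snu6, in *arp42∆* at T1D. They were -0.34 for snu6 and -0.24 for snoU14, in *asp1∆* at T1W. They were -1.51 for snr79, -1.32 for snoR47 and -1.37 for snu6, in *arp42∆* at T1W. They were 2.11 for snoR47 and 2.04 for snoR69b, in *ies2∆* at T1W. They were -0.54 for snR101, in *hht2∆* at T2W. They were -0.98 for snoR69b and -0.99 for snoU14, in *arp42∆* at T2W. With the 2 groups alone the counts were 7 in *pht1∆* at T0, 3 in *iec1∆* at T0, 14 in *asp1∆* at T0, 24 in *arp42∆* at T0, 13 in *ies2∆* at T0, 0 in *iec1∆* at T1D, 16 in *asp1∆* at T1D, 3 in *arp42∆* at T1D, 22 in *ies2∆* at T1D, 7 in *pht1∆* at T1W, 8 in *ies2∆* at T1W, 0 in *hht2∆* at T2W, 0 in *iec1∆* at T2W and 2 in *arp42∆* at T2W, with DESeq2 2 in *pht1∆* at T0, 1 in *iec1∆* at T0, 2 in *asp1∆* at T0 and 3 in *pht1∆* at T1W, and with a minimum mean of 10 counts 0 in *pht1∆* at T1W. Apart from the change of scale under ERCC scaling, the cause was not tested. Without the 3 genes with most reads the summed shares of mRNA reads (%) were 1.33 in wild type at T0, 3.58 in wild type at T1D, 2.73 in wild type at T1W, 2.24 in wild type at T2W, 1.66 in *hht2∆* at T0, 2.78 in *hht2∆* at T1D, 2.55 in *hht2∆* at T1W, 3.94 in *hht2∆* at T2W, 1.61 in *pht1∆* at T0, 4.83 in *pht1∆* at T1D, 3.99 in *pht1∆* at T1W, 3.66 in *pht1∆* at T2W, 1.61 in *iec1∆* at T0, 3.58 in *iec1∆* at T1W, 3.37 in *iec1∆* at T2W, 1.39 in *asp1∆* at T0, 4.68 in *asp1∆* at T1D, 7.39 in *asp1∆* at T1W, 4.88 in *asp1∆* at T2W, 1.97 in *arp42∆* at T0, 2.84 in *arp42∆* at T1D, 5.59 in *arp42∆* at T1W, 3.8 in *arp42∆* at T2W, 0.635 in *ies2∆* at T0 and 3.07 in *ies2∆* at T1W; *iec1∆* at T1D, with 7.33, and *ies2∆* at T1D, with 0.897, moved by less than 1 SD. Shares over genes that overlap no other gene were 7.80 in wild type at T1D, 2.80 in *pht1∆* at T0, 10.5 in *pht1∆* at T1D, 7.19 in *pht1∆* at T1W, 7.14 in *iec1∆* at T1W, 13.9 in *asp1∆* at T1W, 8.66 in *asp1∆* at T2W and 6.26 in *ies2∆* at T1W; fewer genes are summed in each. Leaving out 1 library gave counts of 20 to 22 in wild type at T1D, 14 to 17 in wild type at T1W, 13 to 16 in wild type at T2W, 0 to 0 in *hht2∆* at T0, 0 to 1 in *pht1∆* at T0, 0 to 0 in *iec1∆* at T0, 0 to 1 in *asp1∆* at T0, 1 to 6 in *arp42∆* at T0, 2 to 8 in *ies2∆* at T0, 0 to 0 in *hht2∆* at T1D, 0 to 1 in *pht1∆* at T1D, 2 to 20 in *iec1∆* at T1D, 5 to 13 in *asp1∆* at T1D, 4 to 17 in *arp42∆* at T1D, 28 to 34 in *ies2∆* at T1D, 0 to 0 in *hht2∆* at T1W, 0 to 1 in *pht1∆* at T1W, 0 to 0 in *iec1∆* at T1W, 27 to 30 in *asp1∆* at T1W, 1 to 10 in *arp42∆* at T1W, 1 to 5 in *ies2∆* at T1W, 3 to 21 in *hht2∆* at T2W, 0 to 7 in *pht1∆* at T2W, 5 to 15 in *iec1∆* at T2W, 23 to 27 in *asp1∆* at T2W and 0 to 7 in *arp42∆* at T2W, and summed shares (%) of 2.41 to 2.73 in wild type at T0, 8.58 to 8.67 in wild type at T1D, 5.33 to 6.66 in wild type at T1W, 4.49 to 5.85 in wild type at T2W, 2.40 to 3.52 in *hht2∆* at T0, 7.33 to 8.59 in *hht2∆* at T1D, 4.48 to 5.59 in *hht2∆* at T1W, 7.20 to 10.1 in *hht2∆* at T2W, 3.02 to 3.18 in *pht1∆* at T0, 11.5 to 12.1 in *pht1∆* at T1D, 8.03 to 8.48 in *pht1∆* at T1W, 6.99 to 8.47 in *pht1∆* at T2W, 2.84 to 3.16 in *iec1∆* at T0, 13.1 to 27.4 in *iec1∆* at T1D, 7.82 to 7.95 in *iec1∆* at T1W, 5.83 to 7.26 in *iec1∆* at T2W, 2.48 to 2.95 in *asp1∆* at T0, 9.39 to 13.0 in *asp1∆* at T1D, 14.7 to 16.1 in *asp1∆* at T1W, 9.25 to 9.85 in *asp1∆* at T2W, 3.72 to 4.27 in *arp42∆* at T0, 6.34 to 11.4 in *arp42∆* at T1D, 11.5 to 17.0 in *arp42∆* at T1W, 6.17 to 9.52 in *arp42∆* at T2W, 1.04 to 1.42 in *ies2∆* at T0, 1.25 to 2.2 in *ies2∆* at T1D and 6.62 to 7.18 in *ies2∆* at T1W. The replicate letters did not pair the libraries in 25 of 26 comparisons (correlations of deviations between -0.406 and 0.467). In *hht2∆* at T2W all 3 were above 0.1 (0.467, 0.349 and 0.262), and with the replicate block 17 were called there, as without it. With the letter as a replicate block the counts were 23 at T1D, 18 at T1W and 17 at T2W in wild type. Depth limits the 7 tested genes with a mean under 10 counts.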
